A study of Mus musculus with 3 samples.

Results

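Cornified envelope genes are described here in nuclei of whole mouse corneas: every gene whose symbol begins with Sprr or Lce, together with Ivl, Flg, Cnfn, Dmkn, Asprv1, Tgm1 and Tgm3. The choice was made by symbol in the WT gene list and by Ensembl ID in every list, with no measured value. It gave 43 of the 30406 genes listed for all 3 libraries, made up of 15 Sprr genes, 21 Lce genes and 7 genes named singly. In the GRCm38 annotation (GENCODE M21) 38 of them lie on chromosome 3 between 92215799 and 93293686, the epidermal differentiation complex. The other 5 are Tgm3 on chromosome 2, Asprv1 on 6, Cnfn and Dmkn on 7 and Tgm1 on 14.

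Each of the 3 libraries held nuclei pooled from the corneas of 5 mice, frozen at 7 weeks of age per the labels and counted with 10x Genomics 3' chemistry (version 3). WT came from untreated wild-type mice, KO from untreated mice lacking Aire, and KO_PBS from such mice given phosphate-buffered saline (PBS) for 14 days. KO and KO_PBS carry the same genotype label, and no WT library given saline was analysed here. Aire drives the display of self-antigens in the thymus, and its loss in mice leads to autoimmune dry eye. The labels name no strain or allele. The series text gives 6 weeks of age and treatment day 7 instead, and it names an arm given lacripep that was not analysed here.

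With a single library per group, the differences below rest on no replicates and are given without p-values. Libraries held 96587 to 114357 barcodes and 178988562 (KO_PBS) to 352627863 (KO) unique molecular identifiers (UMIs, one per counted RNA molecule), with medians of 1432 to 2980 UMIs per barcode. Levels are in CPM, UMIs scaled to a library total of 1000000. Between 2833 and 3379 barcode sequences occurred in both libraries of a pair. Aire had 15 UMIs in WT, with 27 in KO and 68 in KO_PBS, too few to check the genotype labels. Krt12, the keratin that defines corneal epithelium, was abundant in every library at 26121 CPM in WT, against 13793 in KO and 6205 in KO_PBS. Markers of lens fibres summed to 480 CPM in WT, with 180 in KO and 8009 in KO_PBS, and those of macrophages to 51.3, 675 and 674. These marker levels thus moved with the groups, and their part in the results was not tested. In such sums over a library, fewer cells of a type and less RNA per cell cannot be told apart.

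The cornified envelope is the protein shell that replaces the plasma membrane of a dying keratinocyte in skin. Transglutaminases, chiefly the products of Tgm1 and Tgm3, crosslink precursors such as involucrin (Ivl), the small proline-rich proteins (Sprr genes) and the late cornified envelope proteins (Lce genes). The healthy cornea keeps a wet, non-cornified surface, and small proline-rich proteins are known as markers of squamous metaplasia in dry eye. The Lce genes are known mainly from epidermis, where those of the Lce3 group are associated with barrier injury.

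The promoters of the most counted Sprr and Lce3 genes are shown because these 2 families moved in opposite directions between KO and KO_PBS. Each is the 210 bases before the RefSeq start site on GRCm38.p6, read 5′ to 3′ on the gene's strand. Capitals mark AP-1 motifs (TGANTCA) and TATA boxes (TATAAA) in the Sprr genes, and GATAAAA in the Lce3 genes. The Lce3a stretch holds none of these. The Sprr1a stretch is chr3:92485882-92486091 and that of Sprr1b chr3:92438780-92438989, both on the minus strand. Sprr2d is chr3:92338930-92339139 and Sprr2f chr3:92364977-92365186, both on the plus strand.
Sprr1a: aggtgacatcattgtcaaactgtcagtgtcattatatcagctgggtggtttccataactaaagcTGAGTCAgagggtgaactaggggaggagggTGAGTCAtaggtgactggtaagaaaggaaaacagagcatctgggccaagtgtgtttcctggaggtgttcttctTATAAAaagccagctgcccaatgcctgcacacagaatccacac
Sprr1b: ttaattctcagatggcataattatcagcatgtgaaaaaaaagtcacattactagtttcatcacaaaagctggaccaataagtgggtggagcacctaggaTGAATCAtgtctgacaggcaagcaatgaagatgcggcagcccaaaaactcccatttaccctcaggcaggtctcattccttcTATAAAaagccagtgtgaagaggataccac
Sprr2d: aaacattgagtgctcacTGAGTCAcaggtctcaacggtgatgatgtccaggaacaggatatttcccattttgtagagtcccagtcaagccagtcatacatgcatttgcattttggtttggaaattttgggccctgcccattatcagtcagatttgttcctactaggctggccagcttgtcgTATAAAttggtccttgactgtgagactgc
Sprr2f: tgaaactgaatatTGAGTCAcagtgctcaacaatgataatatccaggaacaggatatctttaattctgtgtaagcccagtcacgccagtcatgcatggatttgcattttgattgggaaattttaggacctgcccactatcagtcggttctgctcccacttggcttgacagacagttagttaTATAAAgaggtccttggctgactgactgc
The Lce3a stretch is chr3:92926231-92926440 on the minus strand. Lce3b is chr3:92932769-92932978 and Lce3f chr3:92992007-92992216, both on the plus strand.
Lce3a: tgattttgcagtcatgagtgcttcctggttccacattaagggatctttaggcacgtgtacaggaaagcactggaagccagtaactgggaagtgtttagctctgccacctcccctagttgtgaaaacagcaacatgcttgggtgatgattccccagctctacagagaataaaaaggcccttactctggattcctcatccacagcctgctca
Lce3b: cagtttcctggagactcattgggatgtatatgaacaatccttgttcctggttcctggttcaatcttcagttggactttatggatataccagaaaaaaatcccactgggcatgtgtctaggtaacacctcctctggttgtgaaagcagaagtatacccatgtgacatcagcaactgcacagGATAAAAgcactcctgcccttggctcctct
Lce3f: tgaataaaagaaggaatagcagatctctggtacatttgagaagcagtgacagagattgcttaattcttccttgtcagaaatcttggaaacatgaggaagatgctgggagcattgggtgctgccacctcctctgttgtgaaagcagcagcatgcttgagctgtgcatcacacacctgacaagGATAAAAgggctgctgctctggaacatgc

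RefSeq held a promoter window, 250 bases before to 50 after the start, for 41 of the 43 genes. AP-1 is a transcription factor of stressed and differentiating keratinocytes. Its motif was present in 9 of 14 Sprr windows, 0 of 6 Lce3 windows and 0 of 13 Lce1 windows, against 7.81% of the 32851 windows of all genes. The windows of Sprr2a3 and Sprr3, both higher in KO than in WT, held no AP-1 motif. Outside these families Dmkn, higher in KO, had the motif, as did Ivl and Flg, which were not counted as higher there. A TATA box stood in 10 of 14 Sprr windows and 1 of 6 Lce3 windows, against 13.6% of all windows. The letters GATAAAA, which share ATAAA with the TATA box and were searched after the Lce3 sequences had been seen, stood in 5 of 6 Lce3 windows and 0 of 14 Sprr windows, against 3.45% of all. In Lce3b and Lce3f they began 30 and 29 bases before the start, while in Sprr2d and Sprr2f the TATA box began 29 bases before it. The Grainyhead motif AACNGGTT was in none of the 41 windows, against 2.09% of all, too rare for its absence to be read. The KLF motif CCNCNCCC was in 12 of 41 against 49.5% of all. The motifs GAS (TTCNNNGAA) and ISRE were in 4 and 1 of the 41, against 8.30% and 3.44%. All motifs were searched on both strands. A match describes these letters alone. The Sprr2 windows are related copies, with a median pairwise identity of 61.5%, and those of Lce3 with one of 58.2%, so their matches are not independent.

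Values below are UMIs summed over all barcodes and scaled to the library's total over the common genes (CPM), with exact 95% Poisson intervals that cover counting error only. A gene was counted as higher or lower on 3 conditions: 50 or more UMIs over the pair of libraries, a difference of 2-fold or more, and intervals apart from each other. Of the 43 genes, 23 reached 50 UMIs over KO and WT, and a gene near 0 in WT could do so only through KO. By this rule 14 of the 23 were higher in KO than in WT, where 20.6% of the 20252 genes tested were higher. Another 4 were lower, against 8.63% of all genes tested. Between KO_PBS and KO, 9 of 23 were higher and 13 lower, against 39.9% and 4.7% of all genes. Between KO_PBS and WT, 15 of 18 were higher and 1 lower, against 57.0% and 4.06%.

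The median log2 ratio of the tested genes was 3.71 for KO over WT beside 0.24 for all genes. It was -1.83 for KO_PBS over KO beside 0.63, and 2.19 for KO_PBS over WT beside 1.27. These medians describe only the genes that reached 50 UMIs, several of them through KO alone. With no UMI minimum the median for KO over WT was 0.28 over 36 genes, beside -0.042 for all genes, and that for KO_PBS over KO was 1.28 over 42 genes, beside 0.98. Counts under 3 were set to 3, so a gene under 3 UMIs in both libraries takes the ratio of the library totals. For KO_PBS over KO that value is 0.98, the same as the median of all genes. The 0.28 is that of a gene with 5 UMIs in KO and 0 in WT. Medians with no UMI minimum thus partly reflect depth and this floor. With the minimum of 50 UMIs the median of all genes was itself shifted, most in KO_PBS against WT. Of all genes counted either way, 70.4% were higher in KO than in WT, 89.5% in KO_PBS than in KO and 93.3% in KO_PBS than in WT. After each comparison was centred on its median these shares were 53.3%, 69.8% and 56.2%. Each pair of these comparisons shares a library, so they are given side by side and not as separate evidence.

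**Figure D1:**
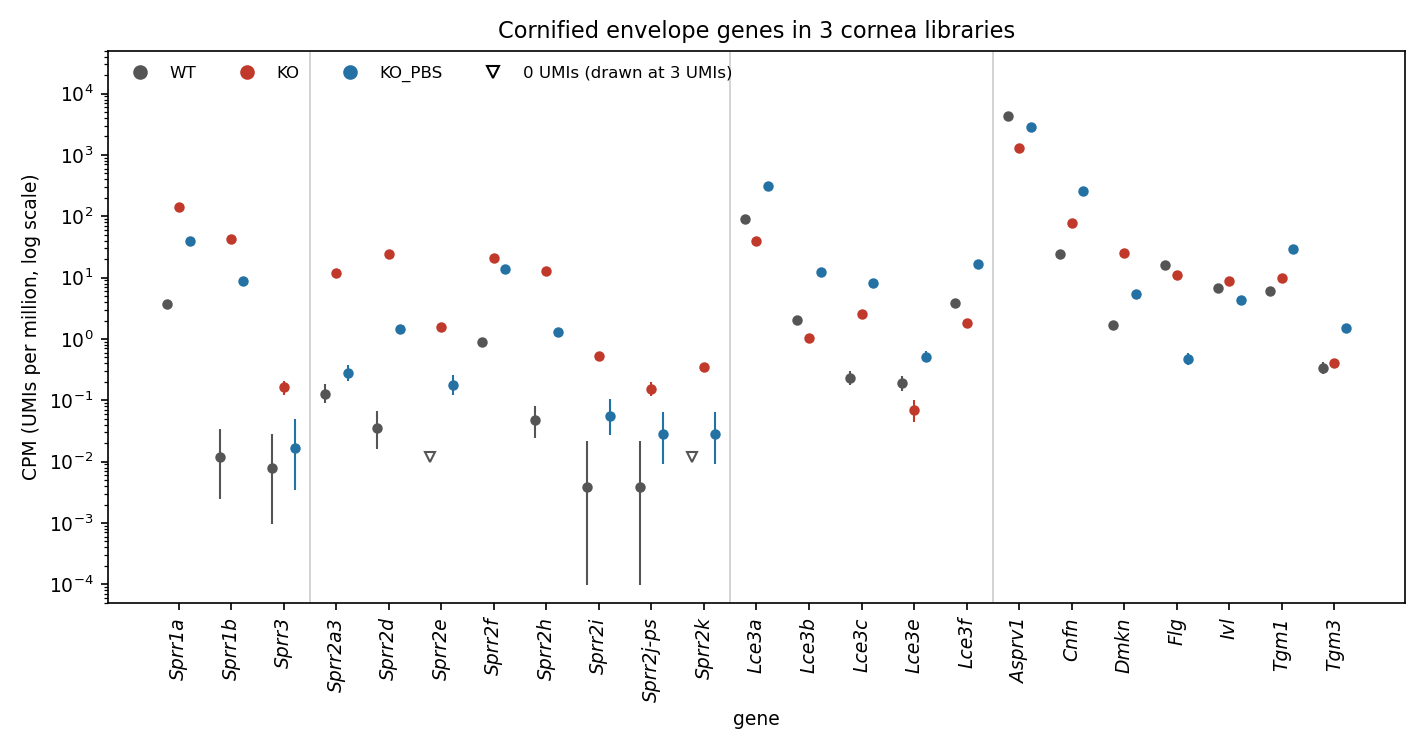
Levels of the 23 cornified envelope genes with at least 50 UMIs over the 3 libraries, in CPM on a log axis, with exact 95% Poisson intervals (WT grey, KO red, KO_PBS blue, triangles for 0 UMIs drawn at the level of 3 UMIs). In every Sprr gene the KO point is highest, and in every Lce3 gene the KO_PBS point is highest.

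All 11 small proline-rich genes tested were higher in KO than in WT. Their summed level was 4.85 CPM in WT, against 254.5 in KO and 65.2 in KO_PBS, so KO exceeded WT 52.4-fold and KO_PBS 3.90-fold. Only Sprr1a and Sprr2f had 50 UMIs in WT. The direction was the same after centring on the median of all genes and after scaling to the corneal epithelium markers, with 11 of 11 higher each time, where 14.8% of all genes were higher after centring and 43.3% after that scaling. Against KO, 10 of the 11 Sprr genes were lower in KO_PBS, where 4.7% of all genes were. Of the 11, Sprr2e, Sprr2i, Sprr2j-ps, Sprr2k and Sprr3 had 3 to 32 UMIs in KO_PBS and reached 50 only through KO. Sprr2b and Sprr4 had more UMIs in KO_PBS than in KO but stayed under the minimum. The count of 10 thus partly follows from that minimum. Against WT, 6 Sprr genes were tested in KO_PBS and all 6 were higher, as were 57.0% of all genes, although Sprr2a3 stood at -0.14 on the log2 scale after centring.

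Sprr1a (ENSMUSG00000050359, chr3:92483952-92485895), a crosslinked precursor also known from injured and regenerating tissue, had 949 UMIs in WT, with 49085 in KO and 6987 in KO_PBS. These were 3.71 CPM (3.48 to 3.95), 139.7 (138.5 to 141.0) and 39.3 (38.4 to 40.2). KO was 37.7-fold above WT and 3.56-fold above KO_PBS, and the intervals did not touch. Sprr1b (ENSMUSG00000048455, chr3:92436809-92438789), the family member used as a marker of squamous metaplasia of the ocular surface, had 3 UMIs in WT, against 14773 in KO and 1556 in KO_PBS. Its ratio of KO to WT was 3587 (1227 to 17396), a wide interval because WT held 3 UMIs. Sprr1b stood at 42.0 CPM in KO and 8.75 in KO_PBS, a 4.81-fold difference. Both genes were thus high in KO, lower in KO_PBS and lowest in WT.

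Of the Sprr2 genes, a row of related copies next to Sprr1b, those with at least 50 UMIs were also highest in KO and lowest in WT, and the size of the fall in KO_PBS varied. Sprr2d had 9 UMIs in WT, with 8662 in KO and 261 in KO_PBS, or 0.035, 24.7 and 1.47 CPM, and KO was 16.8-fold above KO_PBS. Sprr2h had 12, 4501 and 235 UMIs, or 0.047, 12.8 and 1.32 CPM. Sprr2a3 had 33, 4219 and 50 UMIs, or 0.129, 12.0 and 0.281 CPM. KO was 42.7-fold above KO_PBS for Sprr2a3, the largest such ratio among the Sprr genes.

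Sprr2f departed from its neighbours in KO_PBS. It had 231 UMIs in WT, against 7206 in KO and 2436 in KO_PBS, or 0.903, 20.5 and 13.7 CPM. The KO level was 1.497-fold (1.43 to 1.57) above KO_PBS, which does not reach 2-fold, and KO_PBS was 15.2-fold above WT. After centring on the median of all genes Sprr2f also counted as lower in KO_PBS. Of the Sprr2 genes with few UMIs, Sprr2e had 0, 550 and 32 in WT, KO and KO_PBS, and KO was at least 134-fold above the level of 3 UMIs in WT. Sprr2k had 0, 121 and 5 UMIs, and Sprr2i had 1, 185 and 10. Sprr2j-ps, named as a pseudogene but annotated as protein coding, had 1, 54 and 5. Outside this row Sprr3, a precursor of moist epithelia such as oesophagus, had 2, 57 and 3. All 5 were highest in KO.

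The other 4 Sprr genes had under 50 UMIs over the 3 libraries. Sprr2a1 had 0, 7 and 0 UMIs, Sprr2a2 had 0, 5 and 1, Sprr2b had 1, 2 and 5, and Sprr4 had 0, 0 and 7. Counts of near-identical copies are uncertain, since reads that match several genes can be lost or split. Of the 50-base windows in the last 400 bases of a transcript, 100% in Sprr2a1 and Sprr2a2 and 67.7% in Sprr2a3 recurred in another gene. Sprr2a1 and Sprr2a2 also overlap on the same strand. Sprr1a, Sprr1b, Sprr2d, Sprr2e, Sprr2f, Sprr2h and Sprr2k shared no such window.

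**Figure D2:**
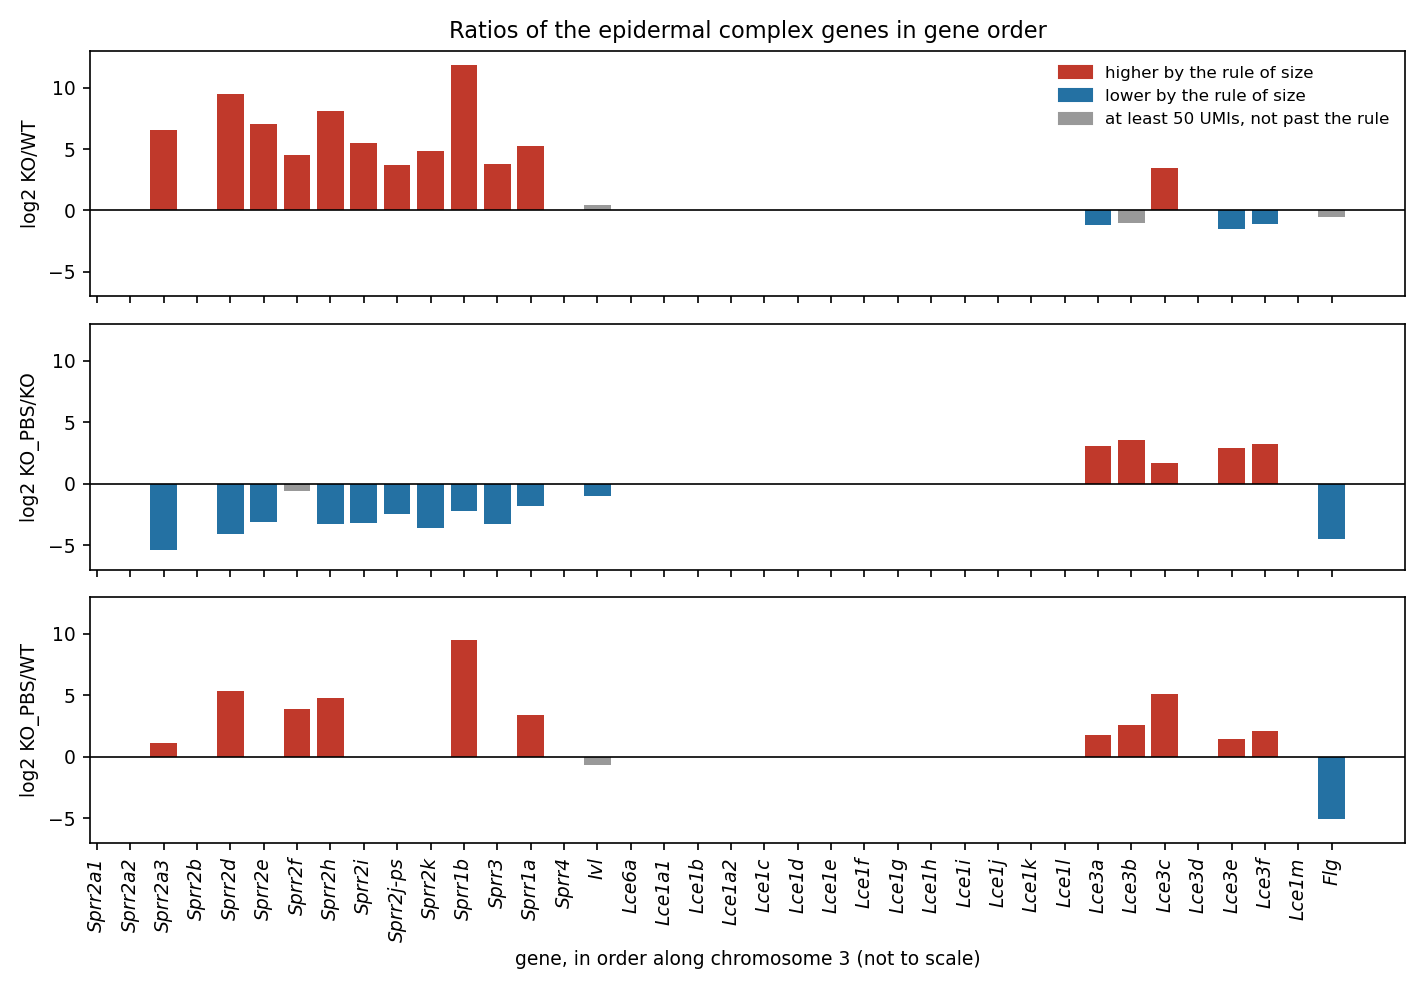
Log2 ratios of the 38 genes on chromosome 3 in gene order, for KO over WT, KO_PBS over KO and KO_PBS over WT, with genes under 50 UMIs over the 2 libraries left blank. The Sprr block at the left is up in KO and down in KO_PBS against KO, while the Lce3 block at the right rises in KO_PBS.

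The late cornified envelope genes gave another order. The Lce3 genes summed to 96.7 CPM in WT, with 44.3 in KO and 355.2 in KO_PBS, which placed KO 2.18-fold below WT and KO_PBS 8.02-fold above KO. Some other markers were also lowest in KO. The conjunctival list summed to 1022, 550 and 957 CPM, with 3 of 6 genes lower in KO than in WT, against 8.63% of all genes. In KO_PBS 3 of the 6 were higher than in KO, near the 39.9% of all genes. Superficial Muc16 stood at 0.649, 0.322 and 4.66 CPM, but the superficial list as a whole did not follow that order. It summed to 1445, 1392 and 1061 CPM, and its genes Cldn4 and Muc4 were highest in KO. The lens list was lowest in KO and highest in KO_PBS. The part of these markers in the Lce3 levels was not tested. Against WT, 3 of the 5 Lce3 genes tested were lower in KO and 1 was higher. Against both KO and WT, all 5 were higher in KO_PBS, where 39.9% and 57.0% of all genes were. In KO_PBS over KO this held after centring and after scaling to the corneal epithelium markers, where 29.9% and 53.0% of all genes were higher. The lower level in KO depended on the scaling. After centring, 4 Lce3 genes were lower in KO, where 12.9% of all genes were. Lce3a then stood at -1.46 on the log2 scale in place of -1.22. Scaled to those markers, 0 Lce3 genes were lower, where 3.44% of all genes were, with Lce3a at -0.61. Most of that list was Krt12, at 26121 of 39230 CPM in WT and 13793 of 25811 in KO. Cdh1 of the list counted as higher in KO, and none as lower. This scaling therefore mostly follows Krt12 and is not read as one to the amount of epithelium. Against WT, centring left 2 of 5 Lce3 genes higher in KO_PBS, where 29.6% of all genes were.

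Lce3a (ENSMUSG00000054325, chr3:92925287-92926230) had 23123 UMIs in WT, against 13649 in KO and 56456 in KO_PBS, or 90.4, 38.8 and 317.5 CPM. KO_PBS was 8.17-fold (8.02 to 8.33) above KO, and KO was 2.33-fold below WT. Lce3f had 3.88, 1.81 and 16.8 CPM, and Lce3e had 49, 24 and 92 UMIs, both with KO lowest. Lce3b had 521, 358 and 2172 UMIs, and its 1.998-fold lower level in KO fell just short of the rule. Lce3b was 12.0-fold higher in KO_PBS than in KO, the largest such ratio of the Lce3 genes.

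Lce3c differed from the others of its group, with 59 UMIs in WT, against 895 in KO and 1448 in KO_PBS. These were 0.231, 2.55 and 8.14 CPM, an 11.1-fold (8.49 to 14.6) higher level in KO than in WT, so WT and not KO was lowest. Of its 50-base windows 43.9% recurred in another gene, chiefly other Lce3 genes, so its share of their reads is uncertain. The same limit holds for Lce3d (47.9%), and for smaller shares of Lce3f (27.6%), Lce3e (21.9%), Lce3b (15.7%) and Lce3a (13.1%). Lce3d had 0, 5 and 13 UMIs. The Lce1 genes, which serve epidermis, were near the floor throughout: all 14 together had 20 UMIs in WT, against 16 in KO and 93 in KO_PBS, with at most 26 in one gene (Lce1h in KO_PBS). Lce6a had 3, 2 and 3.

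Tgm1 and Tgm3 were both highest in KO_PBS, unlike the related Tgm2, which stood at 98.9 CPM in WT, 229.4 in KO and 122.7 in KO_PBS, and Tgm5, at 4.02, 4.53 and 3.86. Tgm1, the membrane-bound crosslinking enzyme, had 1576 UMIs in WT, with 3481 in KO and 5115 in KO_PBS, or 6.16, 9.91 and 28.8 CPM. The 1.61-fold difference between KO and WT did not reach 2-fold, and KO_PBS was 2.90-fold above KO. Tgm3, a soluble enzyme that joins Sprr proteins and involucrin, had 87, 142 and 270 UMIs, or 0.340, 0.404 and 1.52 CPM. KO and WT overlapped in their intervals, and KO_PBS was 3.76-fold above KO. After centring Tgm1 no longer passed the rule in KO_PBS against KO, at 0.91 on the log2 scale, while Tgm3 did at 1.28. Tgm1 overlaps Gm49067 on the other strand.

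Involucrin and filaggrin, the early scaffold and the granule protein that bundles keratins, were lowest in KO_PBS. Ivl had 1711 UMIs in WT, against 3109 in KO and 769 in KO_PBS, or 6.69, 8.85 and 4.32 CPM. Its 1.32-fold difference between KO and WT did not pass the rule, and KO was 2.05-fold above KO_PBS. Scaled to the corneal epithelium markers this last difference fell short, at -0.57 on the log2 scale. Flg had 4037, 3808 and 84 UMIs, or 15.8, 10.8 and 0.472 CPM, so that KO was 22.9-fold above KO_PBS. The KO_PBS counts come from another gene list than the other libraries, and the part of a changed Flg gene model in its near absence was not tested.

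Asprv1 (ENSMUSG00000033508, chr6:86628164-86629710), the protease that processes filaggrin, was abundant and moved unlike the Sprr genes. It had 1103154 UMIs in WT, with 452029 in KO and 515285 in KO_PBS, or 4310, 1287 and 2898 CPM. KO was 3.35-fold below WT and 2.25-fold below KO_PBS. After centring, the difference between KO_PBS and KO fell short of the rule, at 0.54 on the log2 scale in place of 1.17, and it was 1.63 after scaling to the corneal epithelium markers. The difference between KO and WT was -1.99 on the log2 scale after centring and -1.14 after scaling to the corneal epithelium markers. Asprv1 made up nearly all UMIs of these genes in WT. The other 42 genes together held 3.50% of them in WT, 25.2% in KO and 19.9% in KO_PBS.

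Cnfn and Dmkn, a further envelope precursor and a secreted protein of differentiating keratinocytes, were both higher in KO than in WT. Cnfn (cornifelin) had 6208 UMIs in WT, against 27479 in KO and 46174 in KO_PBS, or 24.3, 78.2 and 259.7 CPM. It was 3.22-fold higher in KO than in WT and 3.32-fold higher in KO_PBS than in KO, the order of Tgm1 and Tgm3. Dmkn (dermokine) had 438, 8929 and 978 UMIs, or 1.71, 25.4 and 5.50 CPM. It was 14.8-fold higher in KO than in WT and 4.62-fold higher in KO than in KO_PBS, the order of the Sprr genes. Neither direction changed under centring or under scaling to the corneal epithelium markers.

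Other genes of cornification were read from lists chosen with earlier results of these data known. Their counts stand beside the shares of all genes tested, 20.6% higher and 8.63% lower for KO against WT, and 39.9% and 4.7% for KO_PBS against KO. Of 12 proteases and inhibitors tested, 6 exceeded WT in KO and 0 fell below it. The list also holds the transglutaminase genes Tgm2, one of the 6, and Tgm5, which was not counted either way. Those higher in KO included Klk7, a protease that sheds surface cells, at 0.027 CPM in WT, with 0.936 in KO and 0.332 in KO_PBS, and Klk13 at 0.172, 4.19 and 0.832. Against KO, 3 of 13 were higher in KO_PBS, a smaller share than of all genes, and 4 were lower, a larger one. Spink5, which encodes an inhibitor of these proteases, was among the lower ones at 122.8 CPM in KO and 30.0 in KO_PBS. The higher ones included Klk6 and Klk14, with 57 and 56 UMIs in KO_PBS.

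Of the 5 corneodesmosome genes, which hold cornified cells together, 1 exceeded WT in KO and 1 fell below it, too few to set apart from the 20.6% and 8.63% of all genes. Cdsn, the corneodesmosin gene, had 8 UMIs in WT, against 354 in KO and 42 in KO_PBS, the order of the Sprr genes. The desmoglein gene Dsg1c had 51, 22 and 200 UMIs, the order of the Lce3 genes. Cdsn, Dsg1a and Dsg1b were lower in KO_PBS than in KO, with Dsg1b at 32.8 CPM in KO and 10.8 in KO_PBS.

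Of 13 barrier lipid enzymes, 6 exceeded WT in KO and 0 fell below it, while in KO_PBS 6 were higher and 1 lower than in KO. The share higher in KO_PBS was near the 39.9% of all genes. Ugcg, which makes glucosylceramide, stood at 5.29 CPM in WT, with 35.2 in KO and 69.6 in KO_PBS. Alox12b, a lipoxygenase of the lipid envelope, had 45, 198 and 118 UMIs, or 0.176, 0.564 and 0.664 CPM, with overlapping intervals in KO and KO_PBS. Elovl4, which lengthens very long chain fatty acids, stood at 1.97, 3.84 and 32.2 CPM. Aloxe3, the next lipoxygenase of that pathway, had 40, 57 and 237 UMIs, or 0.156, 0.162 and 1.33 CPM. Cyp4f39 was the one lower in KO_PBS than in KO, at 1.53 and 0.619 CPM.

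Of 15 further envelope and granule protein genes tested, 3 exceeded WT in KO and 1 fell below it, shares near the 20.6% and 8.63% of all genes. Sbsn (suprabasin) had 6.39 CPM in WT, against 19.4 in KO and 12.5 in KO_PBS, and Krtdap had 0.570, 1.53 and 0.855. Cst6, an inhibitor of cathepsins, was the lower one at 145.4, 62.5 and 84.2. In KO_PBS 5 of 16 were higher than in KO, no more than the 39.9% of all genes, led by Tchhl1 with 4 UMIs in KO and 78 in KO_PBS and Crct1 at 12.7 and 94.3 CPM, and Crnn alone was lower, with 184 and 37 UMIs. Anxa1, at 1119 CPM in WT and 420 in KO_PBS, was the one of 16 lower in KO_PBS than in WT.

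Of 19 transcription factors, 4 were higher in KO than in WT, near the 20.6% of all genes, among them Gata3 at 0.340 and 3.37 CPM and Maf at 14.6 and 50.4. Hopx was lower, at 1127 in WT and 534 in KO. In KO_PBS Maf reached 338.8 CPM, where the lens list also stood at 8009 CPM, against 180 in KO. The part of lens cells in the Maf level was not tested. Grhl3, needed for keratinocyte differentiation, was lower in KO_PBS than in KO, at 10.9 against 28.5 CPM. Of 8 keratins tested, Krt16 and Krt17, keratins of stressed and wounded epithelium, exceeded their WT level in KO and Krt78 was lower, counts near the shares of all genes. Krt16 stood at 29.7 CPM in WT, with 703.6 in KO and 110.5 in KO_PBS, and it alone of this list counted as lower in KO_PBS than in KO. Krt5, Krt12 and Krt14, which stand in the epithelial marker lists, were also lower there, at -1.58, -1.15 and -1.36 on the log2 scale.

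Markers of other cells were read beside these results. The epidermis list (Krt1, Krt10, Krt2, Krtdap and Sbsn) summed to 25.8 CPM in WT, against 32.5 in KO and 26.2 in KO_PBS. Krt1 itself had 1.66, 0.976 and 1.88 CPM and Krt10 17.1, 10.6 and 10.9, so these epidermal keratins were not higher in KO. Sbsn and Krtdap of the same list counted as higher in KO, 3.03-fold and 2.69-fold above WT. The neutrophil, plasma cell, keratocyte and T cell lists had their highest summed level in KO and their lowest in WT, as the Sprr genes did. The neutrophil list stood at 8.02, 658.8 and 52.6 CPM, with none of its 5 genes at 0 in any library. Most of it was S100a9 (5.28, 429.5 and 32.5) and S100a8 (2.20, 217.6 and 8.19), which keratinocytes under stress also express. The other 3 neutrophil genes also exceeded WT in KO, Csf3r 31.1-fold, Cxcr2 11.3-fold and Retnlg 22.7-fold. None of these 3 counted as lower in KO_PBS than in KO, and Csf3r stood at 7.54 CPM in KO and 9.63 in KO_PBS. Plasma cell markers summed to 0.942, 1210 and 77.0 CPM, with 4 of 4 higher in KO than in WT and 4 of 4 lower in KO_PBS than in KO. Keratocyte markers summed to 1141, 3897 and 2268 CPM, with 7 of 7 higher in KO and 4 of 7 lower in KO_PBS. T cell markers summed to 1.76, 73.7 and 68.8 CPM, with 6 of 6 higher in KO than in WT and none that counted as lower in KO_PBS against KO, and macrophage markers were level between KO and KO_PBS. Basal and limbal markers were mixed in KO. Of the 8, 3 exceeded WT there (Krt14, Itga6 and Trp63), while the keratin Krt15 counted as lower, by 2.71-fold. The shares of all genes tested were 20.6% higher and 8.63% lower. In KO_PBS 5 of the 8 were lower than in KO, beside 4.7% of all genes. That list summed to most in WT, at 12560 CPM, against 10684 in KO and 4133 in KO_PBS. No gene of these lists was at 0 in any library. The part of these cells in the Sprr levels was not tested.

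Within each library the genes were then read in barcodes chosen by other genes. Barcodes are not replicates, no doublets were removed, and the values describe where RNA lay in each library. For each marker list, the 1% of barcodes with the largest excess of its UMIs were summed, 966 barcodes in WT, with 1070 in KO and 1144 in KO_PBS, and levels are ratios to the whole library. In KO the Sprr genes were 5.51 times the library level (5.36 to 5.66) in barcodes rich in the epidermis list, and 5.67 times in those rich in the neutrophil list. They were 2.48 times in barcodes rich in basal and limbal markers and 1.54 times in those rich in superficial markers. Dmkn and Cnfn were high in the same sets of KO barcodes, at 7.74 and 6.02 times in the epidermis set and 10.1 and 5.55 times in the neutrophil set. Lce3 was not, at 0.95 (0.81 to 1.11) and 0.92 (0.79 to 1.06). In KO most UMIs of the epidermis list were of Sbsn (19.4 of 32.5 CPM). Those of the neutrophil list were mostly of S100a9 and S100a8 (429.5 and 217.6 of 658.8 CPM). Both sets are therefore named by their list and not read as epidermal cells or neutrophils.

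In WT, where Sprr UMIs were few, the conjunctival set held them at 3.48 times (2.65 to 4.49) and the basal and limbal set at 2.83 times (2.16 to 3.65) the library level. In KO_PBS the epidermis set held Sprr at 0.91 times (0.72 to 1.14) and the neutrophil set at 1.15 times (0.95 to 1.39). The superficial set, chosen by Cldn4, Muc4, Muc16, Upk1b and Cldn7, was where Lce3 stood out, at 2.90 times in WT, 1.60 in KO and 2.97 in KO_PBS. Asprv1 was also high there, at 2.76, 2.30 and 2.08 times. Cnfn was 3.47, 2.48 and 1.59 times its library level in the superficial set.

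**Figure D3:**
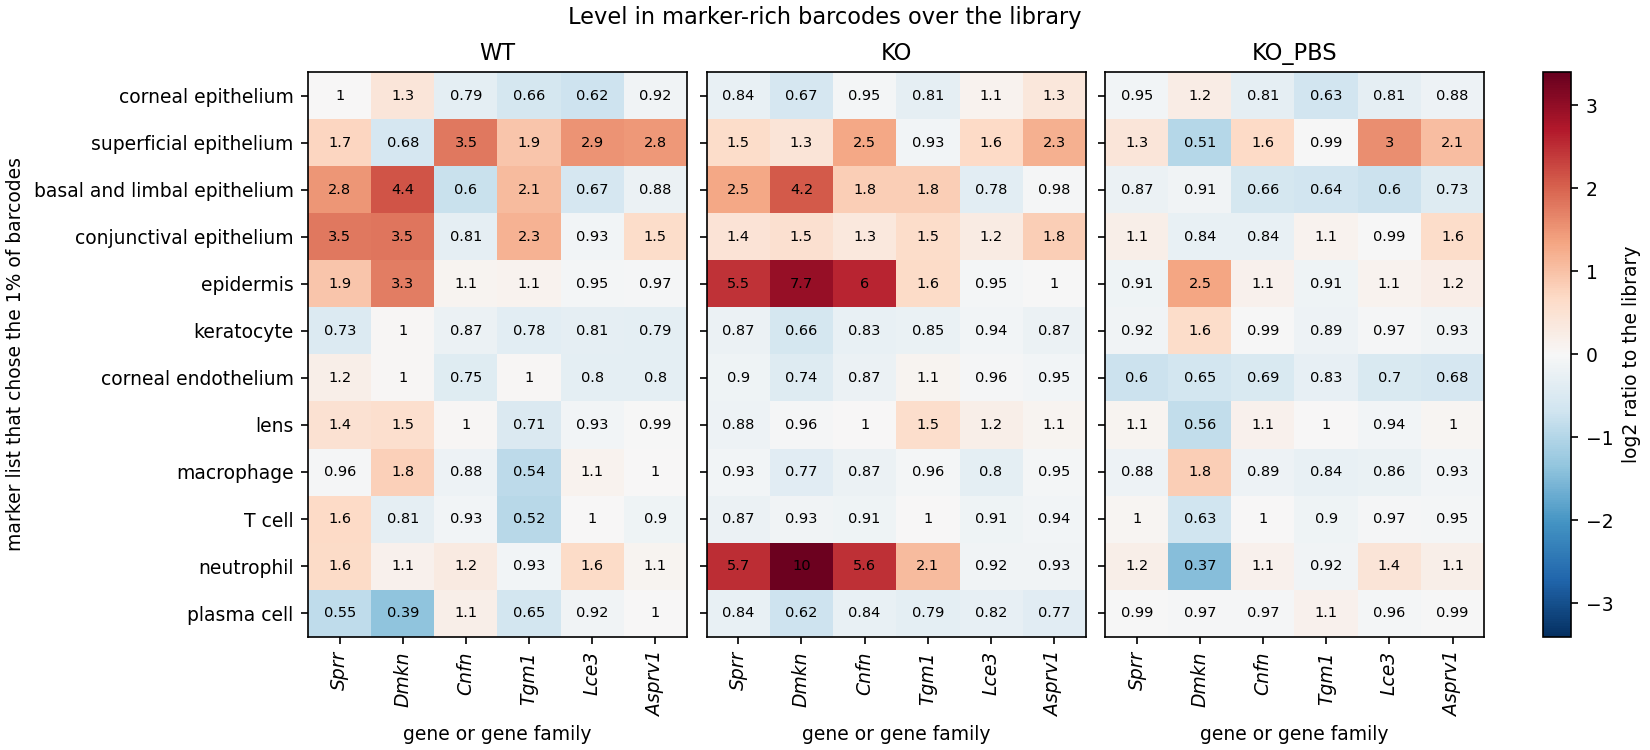
Ratio of each gene or family's level in the 1% of barcodes richest in a marker list to its level in the whole library, per library, with colour on a log2 scale. Sprr, Dmkn and Cnfn are high in the epidermis and neutrophil sets of KO, and Lce3 and Asprv1 in the superficial sets of all 3 libraries. Sets are named by marker list. In KO, Sbsn made up most of the epidermis list, and S100a9 and S100a8 most of the neutrophil list.

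Barcodes chosen by the Sprr genes themselves gave the companions of Sprr in KO. In the 1070 KO barcodes richest in Sprr UMIs, with 3 to 157 such UMIs each, Dmkn was at 10.9 times (10.3 to 11.5) and Sbsn at 9.73 times its library level. Cnfn stood at 9.39, S100a9 at 8.07, Klk10 at 5.47, Klk8 at 5.10 and Krt16 at 4.80 times. Cdsn at 8.53 times, Klk7 at 11.5 and Alox12b at 15.6 rested on 39, 49 and 40 UMIs. The neutrophil list was split there, with S100a9 and S100a8 (3.98 times) high, and Csf3r at 0.73 (0.47 to 1.08), Cxcr2 at 0.76 (0.35 to 1.45) and Retnlg at 1.17 times (0.50 to 2.30). Epidermal Krt1 stood at 0.45 (0.05 to 1.63) and Krt10 at 1.29 (0.99 to 1.65), and Krt12 at 1.06.

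In the KO_PBS barcodes richest in Sprr, Dmkn, Cnfn, S100a9 and Krt16 stood closer to their library level than in KO. These genes were named because they led the KO set, so lower ratios in another library partly follow from that choice. Dmkn was at 1.24 times (0.62 to 2.22) and Sbsn at 1.00 (0.61 to 1.54). Cnfn at 1.26 (1.15 to 1.37), S100a9 at 1.38 (1.08 to 1.73) and Krt16 at 1.37 (1.21 to 1.56) had intervals above 1, while Lce3a was at 1.81 (1.70 to 1.93). Because KO_PBS held fewer Sprr UMIs per barcode, the KO choice was repeated after its Sprr UMIs were thinned from 0.836 to 0.101 per barcode, the KO_PBS level. Dmkn was then at 8.21 times (7.65 to 8.80), Sbsn at 6.94, Cnfn at 6.90, S100a9 at 6.02 and Krt16 at 3.45. In WT, with 1242 Sprr UMIs in all, Dmkn was at 1.37 (0.50 to 2.98), Cnfn at 1.16 and Krt16 at 2.26 times. The chosen WT barcodes had a median of 1 Sprr UMI. Of the 1486 genes with enough UMIs in them to be ranked, which leaves out Krt16 and Dmkn, the keratins Krt4, Krt13 and Krt19 led, at 1.44, 1.30 and 1.27 times.

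**Figure D4:**
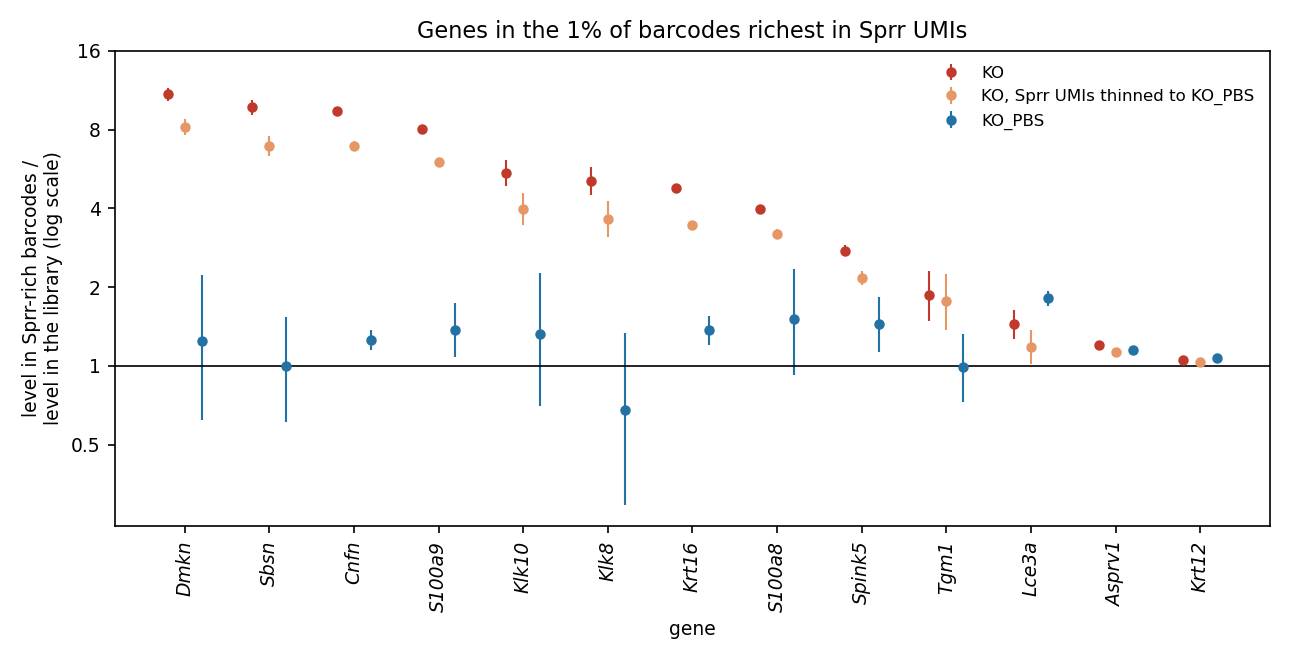
Level of 13 genes in the 1% of barcodes richest in Sprr UMIs as a ratio to the library, on a log axis with 95% Poisson intervals, for KO, for KO with Sprr UMIs thinned to the KO_PBS level, and for KO_PBS. The genes from Dmkn to Spink5 were among the 15 leading genes of the KO set, so their place above KO_PBS in both KO series partly follows from that choice. Asprv1 and Krt12 lie near 1 in all series.

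In KO the Sprr genes examined were each above their library level in barcodes rich in the other members. In the KO barcodes richest in all other cornified envelope genes, the gene itself left out, Sprr2d stood at 12.3 times its library level (11.68 to 12.97), Sprr2f at 10.4 and Sprr2h at 6.14. The size of these ratios moved with the choice, and Sprr2d was at 17.9 in the top 0.5% of barcodes and 8.30 in the top 2%. Sprr1b stood at 3.83 and Sprr1a at 3.63, Sprr2a3 at 2.00 (1.65 to 2.41), Ivl at 0.87 (0.61 to 1.20) and Flg at 1.25 (0.97 to 1.60). Asprv1 holds most UMIs of these genes, so the choice was repeated without it. Sprr2d was then at 20.9 times, Sprr2f at 15.2, Sprr2h at 9.97, Sprr1b at 6.26 and Sprr1a at 5.35. In KO_PBS, Sprr2f was at 2.88 times (2.32 to 3.52) and Sprr1a at 0.81 (0.64 to 1.01). Sprr1b had few UMIs in the chosen KO_PBS barcodes and stood at 0.48 (0.23 to 0.88), but at 1.28 (0.80 to 1.94) with Asprv1 left out of the choice.

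Asprv1, Cnfn and Crct1 were above their library level in Lce3-rich barcodes of all 3 libraries. In the barcodes richest in Lce3, Asprv1 was at 2.73 times in WT, 1.97 in KO and 1.95 in KO_PBS, and Cnfn at 5.45, 2.09 and 2.17 times. Crct1, a small cysteine-rich gene of the same complex, was at 10.6 times in WT, 3.36 in KO and 4.53 in KO_PBS. Chosen the other way, barcodes richest in Asprv1 held Lce3 at 5.81, 4.96 and 4.93 times. In Lce3-rich barcodes the Sprr genes were at 0.95 (0.51 to 1.63), 1.42 and 1.58 times. In KO_PBS the leading genes of the Sprr-rich and the Lce3-rich barcodes overlapped, among genes with enough UMIs there to be ranked. Hbegf stood at 1.87 times in the Sprr-rich and 5.44 in the Lce3-rich set, Slc5a1 at 1.64 and 5.17, Crct1 at 1.77 and 4.53, and Cd274 at 1.38 and 4.35. Cnfn lay with both families in KO. Barcodes richest in it held Lce3 at 5.34, 2.87 and 3.30 times and Sprr at 1.35 (0.74 to 2.27), 7.12 (6.96 to 7.28) and 1.43 times.

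To compare detection at equal depth, each barcode was thinned to 1000 UMIs, which left out 265 shallower barcodes in WT, against 226 in KO and 16860 in KO_PBS. A Sprr UMI was then found in 0.471% of barcodes in WT (exact binomial 0.429 to 0.517), 20.2% in KO and 6.33% in KO_PBS. Without thinning the shares were 1.23%, 48.2% and 9.41%. Barcodes rich in keratocyte markers, stromal cells that should lack these proteins, gave 0.312%, 18.5% and 5.75% after thinning. Their median depths were 3206, 3432 and 1505 UMIs, against 2253, 2970 and 1422 for all. The shares are therefore not read as the share of nuclei expressing a Sprr gene. The source of the Sprr UMIs in keratocyte-rich barcodes was not tested.

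The same held for the other abundant members. Lce3 was found in 8.40%, 4.20% and 28.8% of thinned barcodes, and in 6.85%, 5.51% and 28.5% of the keratocyte-rich ones. The unthinned shares of Lce3 were 18.5%, 12.5% and 39.3%. Asprv1 was found in 96.3%, 68.5% and 93.6% of all thinned barcodes, and in 93.9%, 65.2% and 92.2% of keratocyte-rich ones. An even spread of molecules would give a variance near the mean. The variance of Sprr UMIs over thinned barcodes was 1.37 times their mean in KO, with up to 20 in one barcode, and 1.02 times in KO_PBS, with up to 4. For Lce3 it was 1.64 times in WT, with 1.20 in KO and 1.41 in KO_PBS. The ratio depends on the number of UMIs, so it does not compare libraries or genes, and the 459 thinned Sprr UMIs of WT were too few to read it.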

How the data were processed

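Per library, the authors deposited a matrix of raw UMI counts (genes by barcodes), made with Cell Ranger 7.0.1 (file headers and submitters' processing notes) on build mm10 (submitters' processing notes). Annotation, intron handling and barcode filtering are not given in the sources used here. WT and KO list the same 32285 genes and KO_PBS 31053, and the 30406 common Ensembl IDs hold 99.3% to 99.6% of UMIs. Gene positions are from GENCODE M21 (GRCm38) and promoters from RefSeq (GRCm38.p6).

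UMIs were summed over all barcodes and scaled to a total of 1000000 (CPM). Counts under 3 were set to 3 in a ratio's rule of size, and a group at 0 gives a lower bound against 3 UMIs per library. Ratios have exact conditional 95% intervals. Marker-rich barcodes were the 1% with the largest Poisson deviation of a marker list. All intervals cover counting error only. With 1 library per group no test was made. Members with at least 50 UMIs over the 3 libraries are named, and of each other list the 2 genes with the largest ratio each way among those counted, while other genes named were chosen after their values were seen. A gene that this rule selects is not reported here. The members and lists were chosen with earlier results of these data known. The alternatives were other scalings, UMI and fold minimums, barcode choices and thinning depths. The barcodes chosen by Sprr, Lce3, Cnfn or Asprv1, the choice without Asprv1, the thinning of Sprr UMIs, the variance ratio, the shared windows and the GATAAAA search were added after the data were seen. The rule of size was tested on simulated data. Tools were biopython 1.88, matplotlib 3.10.9, numpy 2.4.6, pandas 2.3.3, python 3.11.15 and scipy 1.17.1. Protein sequences were not used here.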

Additional observations from a re-analysis of the deposited data

How the results depend on the processing

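No paired analysis was possible because each group had 1 library. The median log2 ratio of members, 3.71 for KO over WT, was 0.28 with no UMI minimum, 2.64 in the 25% of barcodes with the fewest UMIs and 4.32 under epithelial scaling. For KO_PBS over KO, -1.83, it was -2.46 when centred, -1.05 with libraries thinned to the KO_PBS total and -0.77 in the barcodes with the fewest UMIs, and for KO_PBS over WT, 2.19, it was 3.25 under epithelial scaling. Scaled to the corneal epithelium markers, or with a 3-fold minimum, 1 of 23 members was lower in KO than in WT, beside 3.44% and 3.64% of all genes. With no UMI minimum, 17 of 42 members were higher in KO_PBS than in KO, near the 41.7% of all genes. The median log2 ratio was then 1.28 in place of -1.83, because genes of few UMIs enter, with counts under 3 set to 3. Against WT, 23 of 41 members were higher in KO_PBS with no UMI minimum, near the 52.4% of all genes. In the 25% of barcodes with the fewest UMIs, 8 of 18 members were lower in KO_PBS than in KO, beside 5.66% of all genes. Sprr3, with few UMIs in those barcodes, stood at -0.074 for KO over WT and 0.54 for KO_PBS over KO on the log2 scale. Centred on the median of all genes, KO_PBS against WT gave 8 of 18 members higher and 3 lower, beside 29.6% and 23.1% of all genes. The member median was then 0.92, and Sprr2a3 stood at -0.14. With a 1.5-fold minimum 2 of 18 members were lower in KO_PBS than in WT, beside 7.53% of all genes. Sprr genes higher in KO than in WT numbered 11 in all settings of scaling, fold and UMI minimum, 9 with libraries thinned to the KO_PBS total, and 7 in the barcodes with the fewest UMIs, where fewer genes reach 50 UMIs. The shares of all genes higher were 10.7% to 43.3%, 20.9% and 22.0% in turn. Of these Sprr genes only Sprr1a and Sprr2f had 50 UMIs in WT. The others reached 50 through KO, so the constant number is not read as support. With no UMI minimum more Sprr genes were tested, and the number higher stayed at 11. Of 56 ratios of named members counted, those that kept direction but fell short of the rule numbered 8 when centred, 8 with a 3-fold minimum, 4 under epithelial scaling, 4 with thinned libraries and 13 in the barcodes with the fewest UMIs. Of 266 alternatives for ratios in chosen barcodes, 122 fell outside the counting interval of the ratio reported, 18 differed from it by over 1.5 times and 18 lay on the other side of the library level. Of those over 1.5 times, 10 came from leaving Asprv1 out of the choice of barcodes (up to 2.92 times, Lce3f in WT), 5 from the top 0.5% and 3 from the top 2% of barcodes. Among them 3 also changed side: Sprr1b in KO_PBS (0.48 and 1.28) and Sprr1a in WT (1.17 and 0.76) without Asprv1, and Dmkn in neutrophil-rich WT barcodes (1.12 and 0.59) with the top 0.5%. The effect of mice within a pool and of the differing gene lists was not tested.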
